A study of Mus musculus with 55 samples.

Results

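Chemokine mRNA was followed in 55 mouse livers through 10 genes: Ccl2, Ccl4, Ccl5, Ccl6, Ccl9, Cxcl1, Cxcl9, Cxcl10, Cxcl12 and Cxcl16. These genes were taken by name from a count table of 24475 genes, and all 10 were found in it. The series asks what happens in a mouse model of a urea cycle disorder when enzymes that release ammonia from glutamine or glutamate are lowered. Wild-type mice (WT, the hybrid B6EiC3SnF1/J) and mice with a variant of the X-linked urea cycle gene Otc (OTC, B6EiC3Sn a/A-Otcspf-ash/J) were compared. All mice were male, and all received an adeno-associated virus by vein at the age of 4 months. The virus carried either a scrambled hairpin (control), a short hairpin RNA against the glutaminase gene Gls2 (sh-Gls2) or one against the glutamate dehydrogenase gene Glud1 (sh-Glud1). All groups, controls included, had the vector in them and ate a diet with 40% protein from week 2 after injection until the livers were taken at week 5, at a labelled age of 5 months. Each library came from 1 mouse, with 10 control, 10 sh-Gls2 and 9 sh-Glud1 libraries in WT and 8, 10 and 8 in OTC. The strains differ in background as well as in Otc, and each hairpin was compared with 1 scrambled control, which limits what a difference can be assigned to.

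Chemokines are small secreted proteins that bind receptors on white blood cells and draw the cells along a gradient. CCL2 draws monocytes through CCR2, CXCL9 and CXCL10 are induced by interferons and draw T cells through CXCR3, and CXCL1 draws neutrophils through CXCR2. In the liver, Kupffer cells, endothelial cells, stellate cells and hepatocytes can each make chemokines, and whole-liver RNA does not tell these sources apart. In bulk tissue, fewer cells of a type and less RNA per cell cannot be told apart either.

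Total counts per library lay between 14489866 and 22781052, and levels are given as CPM, the count of a gene relative to the library total after scaling by TMM factors. A gene was tested if it passed a filter on low counts, which 13311 genes did, and a gene was called at an adjusted p below 0.05 in the quasi-likelihood test of edgeR (Benjamini-Hochberg over the 13311 genes). Log2 fold changes are given with their standard error (SE). The edgeR p-values set a difference between groups against the spread between mice, which was estimated over all groups together. Otc, Gls2 and Glud1 were low in the groups their labels name: Otc fell by 3.09 (log2) in OTC control against WT control, Gls2 fell by 1.11 and 1.15 under sh-Gls2 in WT and OTC, and Glud1 fell by 1.42 and 1.27 under sh-Glud1. Liver identity was checked with 9 hepatocyte genes, whose summed level was 92910 TPM (a scale that also accounts for transcript length) or more in each of the 55 libraries. Several control libraries stood apart in earlier results of these data, namely mouse 13 of the WT controls and mice 03 and 67 of the OTC controls. OTC control mouse 03 was the lowest of its group for 7 of the 10 chemokines, so results of OTC comparisons are given with and without these mice where a call changed.

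In GENCODE M21 on GRCm38, all 10 were protein-coding genes, and 6 of them lie on chromosome 11. Ccl2 (ENSMUSG00000035385.5) spans 82035571 to 82037453 on the plus strand. Ccl5 (ENSMUSG00000035042.2, 83525778 to 83530518, minus strand), Ccl9 (ENSMUSG00000019122.8, 83572919 to 83578636, minus strand), Ccl6 (ENSMUSG00000018927.3, 83587882 to 83593087, minus strand) and Ccl4 (ENSMUSG00000018930.3, 83662584 to 83664683, plus strand) follow on the same chromosome. Cxcl16 (ENSMUSG00000018920.11) lies apart from them at 70453983 to 70459984 on the minus strand of chromosome 11. On chromosome 5, Cxcl1 (ENSMUSG00000029380.11) spans 90891241 to 90893115 on the plus strand, and Cxcl9 (ENSMUSG00000029417.9, 92321347 to 92328079) and Cxcl10 (ENSMUSG00000034855.13, 92346638 to 92348889) are neighbours on the minus strand. Cxcl12 (ENSMUSG00000061353.11) is at 117168535 to 117181367 on the plus strand of chromosome 6. Genes on the opposite strand overlap 4 of the chemokine genes. The whole span is overlapped for Cxcl10 (Art3, 2252 bases), Ccl2 (Gm17268, 1883 bases) and Ccl6 (E230016K23Rik, 5206 bases). For Cxcl16 the overlap covers 552 of 6002 bases (Zmynd15). The library kit keeps strand, but whether the counting used it is not given in the sources used here. Over the 55 libraries the median levels of these partners were 1.21 CPM for Art3 and 2.38 CPM for Zmynd15, against 3.20 CPM for Cxcl10 and 6.11 CPM for Cxcl16, and 0.256 CPM for E230016K23Rik against 4.23 CPM for Ccl6 (Gm17268 had no row in the table).

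RefSeq promoter sequences (build GRCm38.p6) were at hand for 6 of the 10 genes. Of these, Cxcl10 had the smallest adjusted p under sh-Gls2, and Cxcl9 and Cxcl1 are shown beside it, a choice made after their values and matches were seen, because Cxcl9 varied most closely with Cxcl10 and because Cxcl1 held the only pair of matches. Each line gives the 250 bases before the RefSeq start, 5′ to 3′ on the strand of the gene, with motif matches in capitals. Cxcl10 is read from chr5:92348890-92349139 (minus strand), Cxcl9 from chr5:92328080-92328329 (minus strand) and Cxcl1 from chr5:90890995-90891244 (plus strand).
Cxcl10: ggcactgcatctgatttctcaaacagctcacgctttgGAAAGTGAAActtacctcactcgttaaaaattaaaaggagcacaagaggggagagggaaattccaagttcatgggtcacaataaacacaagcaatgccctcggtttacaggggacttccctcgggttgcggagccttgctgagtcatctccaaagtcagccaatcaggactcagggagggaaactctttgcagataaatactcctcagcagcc
Cxcl9: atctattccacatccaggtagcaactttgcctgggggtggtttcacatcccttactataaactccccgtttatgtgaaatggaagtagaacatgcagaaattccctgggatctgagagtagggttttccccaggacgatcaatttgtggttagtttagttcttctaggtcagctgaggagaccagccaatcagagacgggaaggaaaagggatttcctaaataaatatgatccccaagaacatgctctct
Cxcl1: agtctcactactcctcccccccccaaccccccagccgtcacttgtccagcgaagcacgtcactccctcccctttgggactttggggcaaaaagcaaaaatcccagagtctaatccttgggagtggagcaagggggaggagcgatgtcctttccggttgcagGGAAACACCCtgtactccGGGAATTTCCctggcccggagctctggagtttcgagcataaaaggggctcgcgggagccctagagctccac
The motifs searched, on both strands, were the interferon-stimulated response element (ISRE) as TTTC, any 2 bases, TTTC, the NF-kB site as GGG, any 2 bases, TTTCC and the interferon-gamma activated site (GAS) as TTC, any 3 bases, GAA, which reads the same on both strands. Cxcl10 held 1 ISRE match, GAAAGTGAAA at bases −213 to −204 from the start, read as the motif on the opposite strand. Cxcl1 held 2 NF-kB matches, GGAAACACCC at −89 to −80 and GGGAATTTCC at −71 to −62. Among the promoters not printed, Ccl9 held 1 NF-kB match, and Ccl6 and Cxcl12 held none, like Cxcl9. Over 32851 promoters of the same length, 2.98% held an ISRE match, 1.41% an NF-kB match and 7.02% a GAS match. A match describes the letters only, and its part in any change of mRNA was not tested.

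Compared per transcript length, on the TPM scale, the chemokine mRNA of these livers was mostly Cxcl12 and Ccl9. Cxcl12 is made by stromal and endothelial cells and keeps CXCR4-bearing cells in place, and Ccl9 is a myeloid chemokine that binds CCR1. The medians over the 55 libraries were 188 TPM for Cxcl12 and 169 TPM for Ccl9, which made up a median of 48.2% and 41.3% of the TPM of the 10 genes. Next came Cxcl9 (9.57 TPM), Cxcl1 (8.71 TPM), Ccl6 (4.82 TPM), Cxcl10 (4.76 TPM), Cxcl16 (4.13 TPM), Ccl5 (3.54 TPM), Ccl2 (1.05 TPM) and Ccl4 (0.39 TPM). The lowest Ccl9 library (48.6 TPM) was above the highest of Cxcl9 (38.9 TPM), and all other neighbours in this order had overlapping ranges over the libraries. The sum of the 8 less abundant genes had a median of 27.9 TPM in WT control and 61.5 TPM in WT sh-Gls2, and of 28.8 TPM in OTC control and 63.3 TPM in OTC sh-Gls2. Under sh-Glud1 that median was 36.01 TPM in WT and 34.4 TPM in OTC. In OTC the lowest sh-Gls2 library (52.2 TPM) was above the highest control (45.9 TPM), and in WT the ranges overlapped (35.06 to 102.5 TPM against 18.9 to 55.8 TPM).

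Too low to pass the filter was Ccl4, which is made by activated macrophages and lymphocytes. It had between 0 and 11 counts in a library, was at 0 counts in 7 of the 55 libraries and reached the filter level of 0.535 CPM (before TMM scaling) in 0 of them. A count of 0 at the median depth allows up to 0.161 CPM (3 counts), a limit that covers counting error only. Ccl2 was the next lowest. It reached the filter level in 9 of 10 WT sh-Gls2 and 10 of 10 OTC sh-Gls2 libraries but in only 1 of 10 WT control, 2 of 9 WT sh-Glud1, 2 of 8 OTC control and 3 of 8 OTC sh-Glud1 libraries. Most of the 27 libraries in which Ccl2 reached that level were thus sh-Gls2 libraries, the groups in which it was high. Counts over the 9 tested chemokines are given as descriptions, beside counts over all 10 with no filter.

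**Figure D1:**
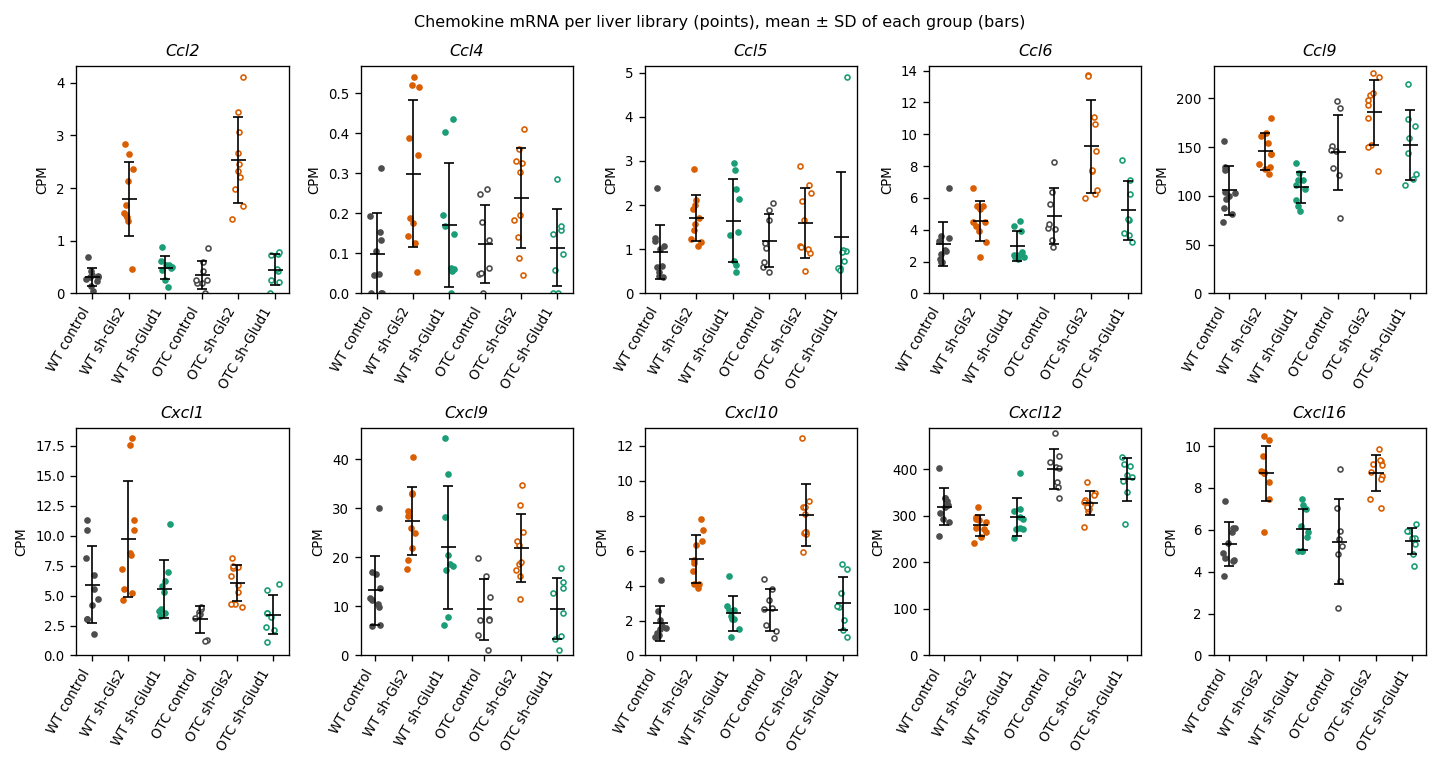
CPM of each chemokine (vertical axis, linear, from 0, a separate scale for each gene) in the 6 groups, with 1 point per library and bars for the mean and SD, cut off at 0. Ccl2 and Cxcl10 in OTC sh-Gls2 lie above all OTC control points, Cxcl12 lies lower under sh-Gls2 than under control, and 1 OTC sh-Glud1 library (mouse 23) stands apart for Ccl5 at 4.90 CPM.

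Under the control vector, OTC livers had more Ccl6, Ccl9 and Cxcl12 and less Cxcl1 than WT livers. Cxcl12 was between 257 and 404 CPM (median 321) in WT control and between 337 and 477 CPM (median 404) in OTC control. All 8 OTC control libraries were above the WT median and 4 were above the highest WT library. The log2 fold change of Cxcl12 was 0.32 ± 0.075 (edgeR adjusted p = 0.000623).

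The myeloid chemokines Ccl9 and Ccl6, both CCR1 ligands, were higher in OTC control. Ccl9 ranged from 73.5 to 156 CPM (median 101) in WT control and from 76.9 to 198 CPM (median 146) in OTC control. The ranges overlapped, with 7 of 8 OTC libraries above the WT median and 2 above the highest WT library, and the log2 fold change was 0.45 ± 0.14 (edgeR adjusted p = 0.00723). Ccl6 ranged from 1.97 to 6.64 CPM (median 2.68) in WT control and from 2.90 to 8.24 CPM (median 4.25) in OTC control, with a log2 fold change of 0.66 ± 0.22 (edgeR adjusted p = 0.0178). The call of Ccl6 was lost without OTC control mouse 35 (adjusted p = 0.0836) and when OTC control mice 03 and 67 were both left out (adjusted p = 0.0564).

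Cxcl1, the neutrophil chemokine, was lower in OTC control. It was between 1.8 and 11.3 CPM (median 5.13) in WT control and between 1.19 and 4.07 CPM (median 3.43) in OTC control. All 8 OTC libraries were below the WT median and 2 of them, mice 03 and 67, were below the lowest WT library. Its log2 fold change was −0.95 ± 0.31 (edgeR adjusted p = 0.0136), and without mice 03 and 67 it was −0.71 (adjusted p = 0.0930), no longer called.

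The other tested chemokines were not called between the strains. Cxcl10 had a log2 fold change of 0.52 ± 0.27 (edgeR adjusted p = 0.127) and was called without WT control mouse 07 (0.74, adjusted p = 0.0247) and when OTC control mice 03 and 67 were both left out (0.75, adjusted p = 0.0319). The estimates for Ccl5, Ccl2, Cxcl16 and Cxcl9 were 0.36, 0.19, 0.03 and −0.49, with adjusted p from 0.326 to 0.879. Of the 9 tested chemokines, 3 were thus called higher and 1 lower, beside 36.2% of all tested genes called in this comparison (19.9% higher and 16.3% lower), a share close to that of the chemokines. The median log2 fold change of the 9 was 0.32, against 0.02 over all tested genes. With no filter on low counts, 4 of all 10 were called, beside 22.9% of 19700 genes. Without mice 13, 03 and 67, 2 of the 9 were called.

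Under sh-Gls2, 7 of the 9 tested chemokines rose and Cxcl12 fell in each strain. Without OTC control mice 03 and 67, 5 of the 9 were called in OTC (4 higher and 1 lower), with Ccl9, Cxcl1 and Cxcl9 no longer called. The background in WT was 34.8% of tested genes called (17.6% higher and 17.2% lower), and in OTC it was 42.6% called (20.1% higher and 22.5% lower). In OTC the libraries of Ccl2, Cxcl10 and Cxcl1 did not overlap between the groups, all 3 higher, beside 3.59% of tested genes (6.74% in either direction), and in WT 0 of the 9 were free of overlap, beside 4.76%. The median log2 fold change of the 9 was 0.73 in WT and 0.92 in OTC, against −0.01 and −0.02 over all tested genes. With no filter, 7 of all 10 were called in WT (6 higher), beside 23% of genes. In OTC 8 of all 10 were then called (7 higher), beside 28.4%. The 6 in WT held Ccl4 (log2 fold change 1.57 ± 0.51, edgeR adjusted p = 0.0183) and not Ccl6 or Cxcl1. Ccl4 was not called in OTC (edgeR adjusted p = 0.244).

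Ccl2, the monocyte chemokine, changed by the largest factor of the 9. It was between 0.0515 and 0.689 CPM (median 0.314) in WT control and between 0.471 and 2.83 CPM (median 1.60) in WT sh-Gls2, where 9 of 10 libraries were above every control. In OTC control it was between 0 and 0.852 CPM (median 0.259), and in OTC sh-Gls2 between 1.40 and 4.12 CPM (median 2.39). The OTC groups did not overlap. Ccl2 was thus 5.69-fold higher in WT (log2 fold change 2.51 ± 0.35) and 7.04-fold higher in OTC (2.81 ± 0.37), with edgeR adjusted p of 1.04e-07 and 1.61e-08. These rest on small counts, from 1 to 11 per WT control library and from 10 to 49 per WT sh-Gls2 library.

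Cxcl10, an interferon-induced CXCR3 ligand, rose in both strains. It was between 1.05 and 4.32 CPM (median 1.55) in WT control and between 3.86 and 7.80 CPM (median 5.38) in WT sh-Gls2. A single WT control library, mouse 07 at 4.32 CPM, made the WT ranges overlap. In OTC control it was between 0.973 and 4.40 CPM (median 2.70), and in OTC sh-Gls2 between 5.93 and 12.5 CPM (median 7.60), with no overlap. The log2 estimate was 1.60 ± 0.25 in WT and 1.61 ± 0.26 in OTC (edgeR, adjusted p of 1.37e-06 and 1.86e-06), a factor of 3.02 and of 3.06.

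Cxcl9, another CXCR3 ligand, also rose. It was between 6.08 and 30.1 CPM (median 11.5) in WT control and between 17.6 and 40.5 CPM (median 27.2) in WT sh-Gls2. In OTC control it was between 1.03 and 19.9 CPM (median 7.39), and in OTC sh-Gls2 between 11.6 and 34.8 CPM (median 20.8). The groups overlapped in both strains, while every sh-Gls2 library was above the control median of its strain. This gave a log2 fold change of 1.05 ± 0.35 in WT and 1.22 ± 0.38 in OTC (edgeR, adjusted p of 0.0168 and 0.00840). Without OTC control mice 03 and 67 the OTC value was 0.91 (adjusted p = 0.0531), no longer called.

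Cxcl16, a membrane-bound chemokine that is shed by ADAM10 and binds CXCR6, rose in both strains. It lay between 3.8 and 7.39 CPM (median 5.14) in WT control and between 5.88 and 10.5 CPM (median 8.74) in WT sh-Gls2, with 9 of 10 libraries above every control. In OTC it was between 2.27 and 8.93 CPM (median 5.40) under control and between 7.06 and 9.86 CPM (median 8.94) under sh-Gls2. edgeR put the log2 fold change at 0.70 ± 0.13 in WT and 0.67 ± 0.14 in OTC (edgeR, adjusted p of 2.15e-05 and 7.9e-05).

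Ccl6 rose from a median of 2.68 CPM (1.97 to 6.64) to 4.49 CPM (2.26 to 6.60) in WT and from 4.25 CPM (2.90 to 8.24) to 8.36 CPM (6.02 to 13.7) in OTC. In OTC all 10 sh-Gls2 libraries were above the control median and 5 were above every control. The fitted log2 change was 0.56 ± 0.21 in WT and 0.92 ± 0.22 in OTC (edgeR, adjusted p of 0.0370 and 0.000588). In WT the call of Ccl6 was lost when any 1 of 10 libraries was left out (control mice 02, 11, 19, 20, 28 and 77, sh-Gls2 mice 01, 30, 34 and 36), with adjusted p from 0.0563 to 0.0822, and with no filter on low counts (adjusted p = 0.0530).

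Ccl9 rose from a median of 101 CPM (73.5 to 156) to 143 CPM (122 to 180) in WT and from 146 CPM (76.9 to 198) to 196 CPM (125 to 226) in OTC. The ranges overlapped in each strain. Its log2 fold change was 0.46 ± 0.13 in WT and 0.36 ± 0.14 in OTC (edgeR, adjusted p of 0.00394 and 0.0310). The OTC call of Ccl9 was lost without control mouse 03, 72 or the unnumbered one or without mouse 49 or 50 of sh-Gls2, where the adjusted p lay between 0.0547 and 0.101, and without control mice 03 and 67 together (0.26, adjusted p = 0.134). It was also lost with only the compared groups in the fit (adjusted p = 0.0637) and by limma on log2(TPM + 1) and log2(TPM + 0.1) (adjusted p of 0.0803 and 0.0811).

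Cxcl1 rose in both strains. It went from a median of 5.13 CPM (1.8 to 11.3) to 8.51 CPM (4.61 to 18.2) in WT, with wide overlap, and from 3.43 CPM (1.19 to 4.07) to 6.27 CPM (4.08 to 8.14) in OTC, where the ranges met without overlap. The log2 estimate was 0.73 ± 0.28 in WT and 1.0 ± 0.31 in OTC (edgeR, adjusted p of 0.0364 and 0.00759). The WT call was lost without control mouse 02, 11, 13, 19 or 20 or mouse 34, 36 or 78 of sh-Gls2, where the adjusted p lay between 0.0552 and 0.104, and the OTC call without control mice 03 and 67 together (0.75, adjusted p = 0.0604). The WT call of Cxcl1 was also lost with no filter on low counts (adjusted p = 0.0571) and with only the compared groups in the fit (adjusted p = 0.0831).

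Cxcl12 was the single chemokine of the 9 that fell. Its median went from 321 CPM (257 to 404) to 280 CPM (242 to 319) in WT and from 404 CPM (337 to 477) to 327 CPM (275 to 371) in OTC. Every sh-Gls2 library was below the control median of its strain, and 7 of 10 in OTC were below every control. Cxcl12 fell by 0.19 ± 0.071 (log2) in WT (edgeR adjusted p = 0.0287) and fell by 0.29 ± 0.075 in OTC (edgeR adjusted p = 0.00148). The WT call was lost without control mouse 77 or sh-Gls2 mouse 79 (adjusted p of 0.0801 and 0.0533).

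Ccl5, which is made by T cells and natural killer cells and draws T cells, was not called. It was between 0.367 and 2.38 CPM (median 0.809) in WT control and between 1.08 and 2.81 CPM (median 1.64) in WT sh-Gls2, and all 10 sh-Gls2 libraries were above the control median. This gave a log2 fold change of 0.88 ± 0.37 in WT and 0.41 ± 0.38 in OTC (edgeR, adjusted p of 0.0597 and 0.405). In WT it was called by DESeq2 (adjusted p = 0.0471), by limma on log2(TPM + 1) and log2(TPM + 0.1) (adjusted p of 0.0334 and 0.0232), with only the compared groups in the fit (adjusted p = 0.0167), without control mouse 07 (1.13, adjusted p = 0.0155) and without sh-Gls2 mouse 45 (adjusted p = 0.0492). For Ccl4, below the filter, the WT mean was 0.0994 ± 0.102 CPM (SD, n = 10) under the control vector against 0.299 ± 0.185 CPM (SD, n = 10) under sh-Gls2. That rests on 18 and 54 reads in all, with an exact two-sided permutation p = 0.00838 (adjusted p = 0.0419 over 5 comparisons). In OTC the means were 0.123 and 0.239 CPM (exact permutation p = 0.05, adjusted p = 0.125).

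Across the strains, the effects of sh-Gls2 on the chemokines were not shown to differ. None of the 9 interaction terms was called by edgeR (0 at an unadjusted p below 0.05, 0 by DESeq2), beside 0.331% of all tested genes, and the smallest adjusted p was 0.704. The intervals of the differences are wide for the low genes: the 95% interval of the OTC effect over the WT effect ran from a factor of 0.602 to 2.54 for Ccl2 and from 0.601 to 1.70 for Cxcl10. They are narrower for the abundant genes, from 0.813 to 1.08 for Cxcl12 and from 0.720 to 1.20 for Ccl9.

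**Figure D2:**
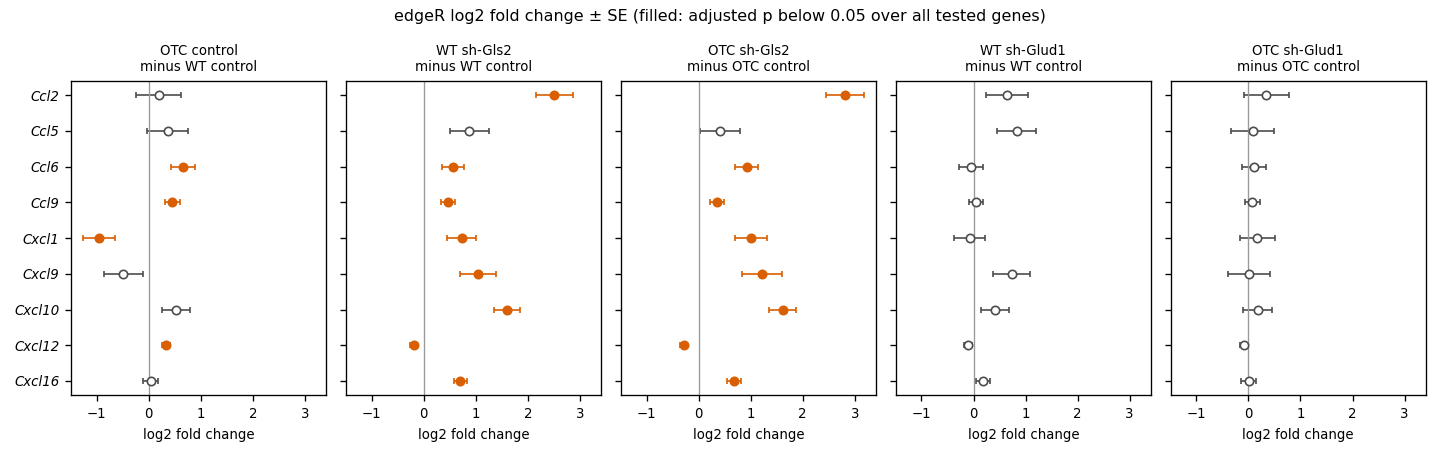
Log2 fold change (horizontal axis) of the 9 tested chemokines in 5 comparisons, with points for the edgeR estimate, bars for ± SE and filled points for adjusted p below 0.05. The estimates under sh-Gls2 span −0.19 to 2.51 in WT and −0.29 to 2.81 in OTC, and no point is filled under sh-Glud1.

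Under sh-Glud1, no chemokine was called in either strain, beside 0.0225% of tested genes (3 genes) in WT and 0.0150% (2 genes) in OTC. In WT, 2 of the 9 were at an unadjusted p below 0.05, Ccl5 and Cxcl9, and in OTC 0 were. DESeq2 called 0 in either strain. Ccl5 was between 0.489 and 2.96 CPM (median 1.38) in WT sh-Glud1, and its log2 fold change was 0.83 ± 0.38 (edgeR adjusted p = 0.939). Cxcl9 was between 6.23 and 44.3 CPM (median 18.6) in WT sh-Glud1, with a log2 fold change of 0.74 ± 0.36 (edgeR adjusted p = 0.939). In both cases 2 of 9 libraries were above every control and none was below every control. T and NK cell markers were higher in level there too, with a summed level from 4.59 to 10.9 TPM (median 8.86) in WT sh-Glud1 against 3.30 to 11.6 TPM (median 4.40) in WT control, and of the 7 tested markers edgeR called 0 (3 at an unadjusted p below 0.05, 0 by DESeq2). The part of these cells in the Ccl5 and Cxcl9 values was not tested. For Ccl2 in WT the value was 0.65 ± 0.40, and its 95% interval, from a factor of 0.905 to 2.72, does not exclude a rise. In OTC sh-Glud1 the estimates ran from −0.08 for Cxcl12 to 0.34 for Ccl2. The OTC value of Ccl5, 0.08, was −0.66 without sh-Glud1 mouse 23, the library at 4.90 CPM. The strain difference of the sh-Glud1 effect was called for 0 of the 9 chemokines by edgeR, beside 0% of all genes, with 0 at an unadjusted p below 0.05 and 0 by DESeq2.

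Between the hairpins, sh-Gls2 livers had more Ccl2, Cxcl10, Cxcl16, Ccl6 and Cxcl1 than sh-Glud1 livers in both strains. These comparisons share the sh-Gls2 libraries with those above. In WT, 6 of the 9 were called, all higher, beside 29.5% of genes (15.5% higher and 14.1% lower), and in OTC 6 were called higher and 1 lower, beside 40.4% (19.4% higher and 21% lower). With no filter, 6 of all 10 were called in WT, all higher, beside 19.1% of genes. In OTC 6 of all 10 were then called higher and 1 lower, beside 26.9%. In OTC, Ccl2, Cxcl10 and Cxcl16 did not overlap between the hairpins, beside 3.33% of tested genes higher without overlap (6.36% in either direction). The log2 fold change of Ccl2 was 1.86 ± 0.35 in WT and 2.47 ± 0.36 in OTC (edgeR, adjusted p of 3.28e-05 and 1.87e-07). Cxcl10 was at 1.19 ± 0.26 in WT and 1.43 ± 0.26 in OTC (edgeR, adjusted p of 0.000265 and 1.43e-05). Cxcl9 was called in OTC (1.20 ± 0.38, edgeR adjusted p = 0.00969) and not in WT (0.31 ± 0.35, edgeR adjusted p = 0.540), a difference between strains that was not tested. Ccl9 was called in WT (0.42 ± 0.13, edgeR adjusted p = 0.0122) and not in OTC (0.28 ± 0.14, edgeR adjusted p = 0.0925), where leaving out sh-Gls2 mouse 21 or sh-Glud1 mouse 71 gave a call (adjusted p of 0.0460 and 0.0283). Cxcl12 was lower in OTC (−0.21 ± 0.075, edgeR adjusted p = 0.0229), a call lost without sh-Gls2 mouse 39 or sh-Glud1 mouse 44, 53 or 58 (adjusted p from 0.0515 to 0.0629). In OTC the call of Cxcl1 was lost without sh-Glud1 mouse 23, 58 or 65 (adjusted p from 0.0541 to 0.0677), and Ccl5 was called without sh-Glud1 mouse 23 (1.07, adjusted p = 0.0140). In WT the calls of Ccl6 and Cxcl1 were lost without sh-Gls2 mouse 34, among others (Ccl6 also without sh-Gls2 mice 01, 30 and 36 and sh-Glud1 mice 15, 37, 40, 56, 69 and 70, adjusted p up to 0.0703, and Cxcl1 without sh-Gls2 mouse 78 and sh-Glud1 mice 32, 37, 40 and 56, adjusted p up to 0.0811).

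The order of the group medians differed between the chemokines. OTC sh-Gls2 was the highest group for Ccl2, Ccl6, Ccl9, Cxcl10 and Cxcl16, and WT sh-Gls2 for Ccl4, Ccl5, Cxcl1 and Cxcl9. For Cxcl12 the order ran from OTC control (404 CPM) through OTC sh-Glud1, OTC sh-Gls2, WT control and WT sh-Glud1 to WT sh-Gls2 (280 CPM). In each of these orders the ranges of neighbouring groups overlapped.

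Between mice of the same group, several chemokines rose and fell together. With the mean of each group removed from log2 CPM, Pearson correlations over the 55 libraries were computed for all 36 pairs of the 9 tested chemokines, with 100000 permutations within groups. Of the 36 pairs, 14 were called at an adjusted p below 0.05, all with a positive correlation, and 13 of these also by Spearman's rho. Cxcl9 and Cxcl10 varied most closely, with r = 0.83 and rho = 0.74 (adjusted permutation p = 0.00012 for each, from an unadjusted 1e-05, the smallest that the permutations can give). Without the 2 libraries farthest from the median of Cxcl9 their r was 0.79. Within the single groups r ran from 0.755 to 0.908 except in OTC sh-Gls2, where it was 0.165.

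Cxcl16 varied with both of them, at r = 0.75 with Cxcl9 and r = 0.70 with Cxcl10 (rho of 0.69 and 0.66, each with adjusted permutation p = 0.00012). Ccl2 followed at r = 0.61 with Cxcl16 (rho 0.43), 0.61 with Cxcl9 (rho 0.42) and 0.58 with Cxcl10 (rho 0.48), with adjusted permutation p of 0.00027, 0.000432 and 0.00048. Without the 2 libraries farthest in Ccl2 these fell to 0.50, 0.40 and 0.44. In OTC sh-Gls2, where Ccl2 was highest, its r with Cxcl9 was −0.51, against 0.44 to 0.85 in the other groups. Cxcl12 was in none of the called pairs, and its r with the other 8 ran up to 0.30. All pairs share the libraries and their scaling. Without mice 13, 03 and 67, 10 pairs were called.

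**Figure D3:**
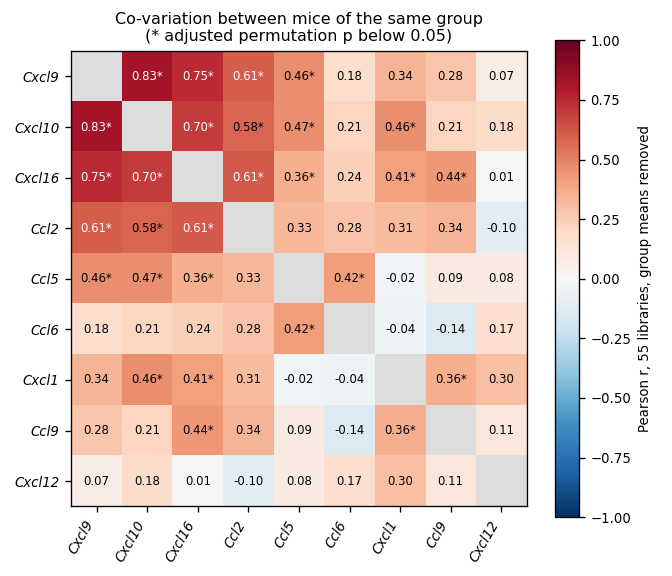
Pearson r between the 9 tested chemokines over 55 libraries with group means removed (colour scale from −1 to 1), with an asterisk where the adjusted permutation p is below 0.05. The block of high values holds Cxcl9, Cxcl10, Cxcl16 and Ccl2, with r from 0.58 to 0.83, and the row of Cxcl12 holds no asterisk.

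The 2 genes most like each chemokine, by the same correlation over 55 libraries, differed from gene to gene and are a description. Cxcl9 was most like Gm4841 (r = 0.89) and Gbp2 (r = 0.86), a guanylate-binding protein induced by interferon gamma. For Cxcl10 they were Evl (0.76) and Cd72 (0.76), a B cell and macrophage surface protein. For Ccl5 they were Cd8a (0.67), the alpha chain of CD8 on cytotoxic T cells, and Sh2d2a (0.67), a T cell adaptor. For Ccl6 they were C1qb (0.70) and C1qc (0.68), complement genes of macrophages. Ccl2 was most like Mndal and the bacterial lipoprotein receptor Tlr2 (0.70 and 0.69), Cxcl16 like Tmsb4x (0.79) and Igfbp7 (0.78), and Cxcl1 like Prkd3 (0.74) and Arrdc3 (0.69). Ccl9 was most like Fyn (0.59) and Igf2r (0.57), and Cxcl12 like Nfxl1 (0.59) and Atxn7 (0.56).

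Of the receptors, those of Ccl2 and Cxcl12 rose under sh-Gls2. Ccr2, the receptor of CCL2 on monocytes, was between 0.779 and 1.66 CPM in WT control and between 1.46 and 5.17 CPM in WT sh-Gls2 (log2 fold change 1.12 ± 0.22, edgeR adjusted p = 6.87e-05). In OTC its log2 fold change was 0.85 ± 0.23 (edgeR adjusted p = 0.00271).

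Cxcr4, the receptor of CXCL12, rose in both strains (0.57 ± 0.20 and 0.55 ± 0.21, edgeR adjusted p of 0.0224 and 0.0308), while its ligand fell. Cxcr2, the receptor of CXCL1, had values of −0.22 ± 0.14 in WT (edgeR adjusted p = 0.222) and fell by 0.38 ± 0.15 in OTC (edgeR adjusted p = 0.0338). Cxcr6, the receptor of CXCL16, and the CXCL12 scavenger Ackr3 were not called, at 0.10 and 0.14 in WT and 0.35 and 0.10 in OTC. Ccr1 and Cxcr3 were below the filter, with between 0 and 14 counts for Ccr1 and between 1 and 17 for Cxcr3 in a library. Ccr1, the receptor of CCL6 and CCL9, averaged 0.101 ± 0.0638 CPM (SD, n = 10) under the WT control vector against 0.302 ± 0.174 CPM (SD, n = 10) under sh-Gls2, and 0.290 against 0.451 CPM in OTC, with no test.

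**Figure D4:**
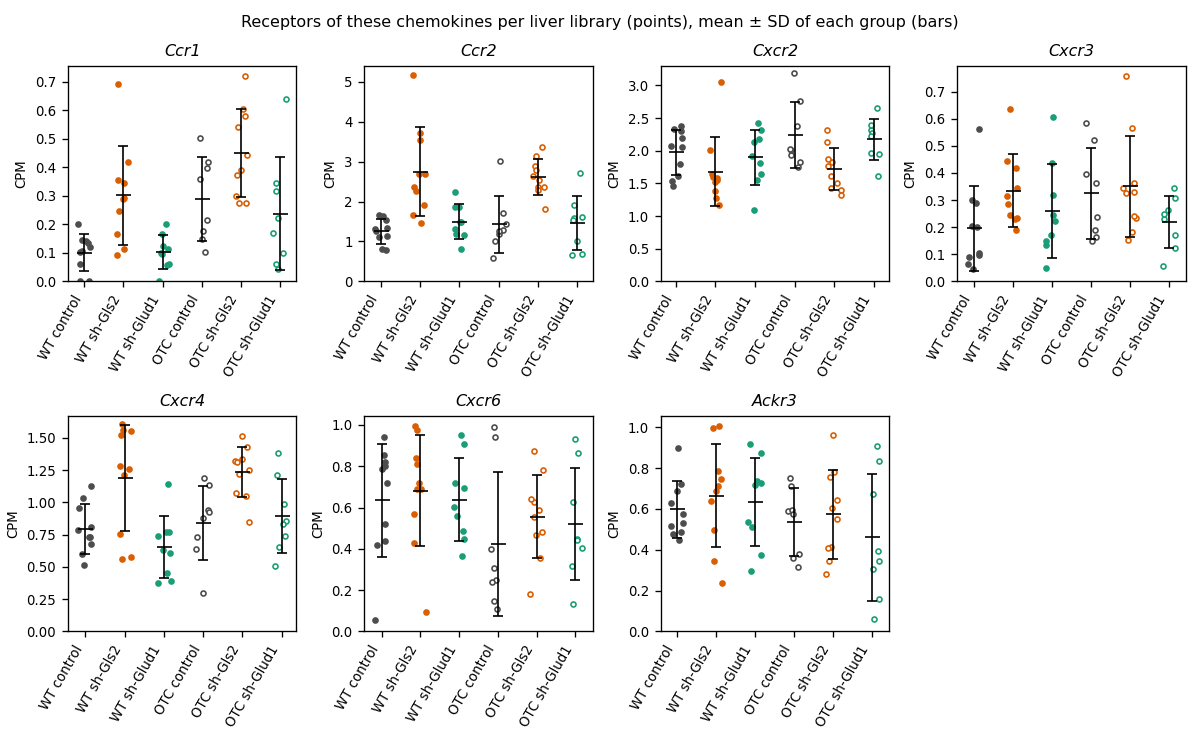
CPM (vertical axis, linear, from 0) of 7 receptors of these chemokines in the 6 groups, with 1 point per library and bars for mean and SD. Ccr2 and Cxcr4 have higher means under sh-Gls2 than under control in both strains, for example 2.75 against 1.25 CPM for Ccr2 in WT, and Ccr1 and Cxcr3 reach at most 0.759 CPM.

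Of the other listed receptors, Cx3cr1, the fractalkine receptor of monocytes, rose in WT (1.37 ± 0.37, edgeR adjusted p = 0.00316) and was at 0.81 ± 0.37 in OTC (edgeR adjusted p = 0.0708). Under sh-Gls2, edgeR called 4 of 7 tested receptors higher in WT, and 3 higher and 1 lower in OTC. Over all tested genes 34.8% were called in WT and 42.6% in OTC. Between the strains under control, 0 of 7 tested receptors (18 listed) were called by edgeR (1 at an unadjusted p below 0.05, 0 by DESeq2). Of 5 atypical receptors, which do not signal through G proteins, 2 were called higher in WT under sh-Gls2 and 1 in OTC. The share called higher over all tested genes was 17.6% in WT, below that of these 5 genes, and 20.1% in OTC, near it. Of the 5, 0 were called lower, and in either direction the shares over all genes were 34.8% and 42.6%. Ccrl2 rose in both strains (0.52 and 0.66, edgeR adjusted p of 0.0143 and 0.00180). Ackr1 rose in WT (0.97 ± 0.31, edgeR adjusted p = 0.0131) and was not called in OTC, where the 5 estimates ran from −0.45 to 0.66. Their strain differences in the sh-Gls2 effect ran from −1.25 to 0.14. Of these edgeR and DESeq2 called 0, and 2 were at an unadjusted p below 0.05.

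Of 27 other chemokine genes, 10 were tested. Under sh-Gls2, 3 were higher and 2 lower in WT, and 4 higher and 2 lower in OTC, beside 34.8% and 42.6% of all tested genes called. Their median log2 fold change was 0.21 in WT and 0.05 in OTC, against −0.01 and −0.02 over all tested genes. Cxcl14, a chemokine of epithelia, rose by 1.95 ± 0.53 in WT and 2.43 ± 0.60 in OTC (edgeR, adjusted p of 0.00326 and 0.00087). Pf4, a platelet chemokine, rose by 1.15 ± 0.28 in WT and 0.79 ± 0.30 in OTC (edgeR, adjusted p of 0.00117 and 0.0292). Ccl27a fell by 0.82 ± 0.21 in WT and by 0.98 ± 0.21 in OTC (edgeR, adjusted p of 0.00145 and 0.000199), and Ccl25 fell by 0.42 in WT and by 0.38 in OTC (edgeR adjusted p of 0.0105 and 0.0263). Cxcl11, the third CXCR3 ligand, rose in OTC (0.65 ± 0.22, edgeR adjusted p = 0.0127), was at 0.21 ± 0.19 in WT (edgeR adjusted p = 0.416), and was lower in OTC control than in WT control (−0.82 ± 0.22, edgeR adjusted p = 0.00244).

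Among cytokines and transcription factors that act upstream of chemokine genes, 17 of 22 were tested, and under sh-Gls2 7 were higher and 0 lower in WT, and 6 higher and 1 lower in OTC. Over all tested genes 34.8% were called in WT and 42.6% in OTC, so the number called in either direction was near the background, in OTC most closely. Irf7, a factor induced by interferon that binds ISRE sites, rose by 2.06 ± 0.20 in WT and 1.01 ± 0.20 in OTC (edgeR, adjusted p of 4.75e-12 and 7.51e-05). Irf7 was already higher in OTC control than in WT control (1.75 ± 0.20, edgeR adjusted p = 4.69e-09). For the strain difference in the sh-Gls2 effect, edgeR called 0 of the 17 (3 at an unadjusted p below 0.05). DESeq2 called 1, Irf7. The NF-kB subunit gene Relb rose by 1.05 ± 0.20 in WT and 1.40 ± 0.21 in OTC (edgeR, adjusted p of 2.92e-05 and 3.45e-07).

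Of 11 proteases that cut or shed chemokines, 8 were tested. Under sh-Gls2, 4 were higher and 1 lower in WT, and 4 higher and 2 lower in OTC, beside 34.8% and 42.6% of all tested genes called. Mmp12, the macrophage metalloelastase, rose by 3.25 ± 0.47 in WT and 2.63 ± 0.43 in OTC (edgeR, adjusted p of 2.72e-07 and 2.18e-06), with no overlap between the groups. Dpp4, which trims CXCL10 and CXCL12, rose by 0.62 ± 0.075 in WT and 0.64 ± 0.080 in OTC (edgeR, adjusted p of 2.42e-09 and 6.78e-09). Adam10, which sheds CXCL16, rose by 0.30 ± 0.055 in OTC (edgeR adjusted p = 1.99e-05) and 0.18 ± 0.052 in WT (edgeR adjusted p = 0.00415), and Mmp14 fell by 0.50 in WT and by 0.74 in OTC.

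Markers of several cell types moved with the chemokines under sh-Gls2. Of 12 macrophage and Kupffer cell markers, 9 were higher in WT and 10 in OTC, and 0 were lower, beside 17.6% of all tested genes higher in WT and 20.1% in OTC. Their summed level ran from 124 to 229 TPM (median 155) in WT control, from 191 to 306 TPM (median 261) in WT sh-Gls2, from 135 to 290 TPM (median 195) in OTC control and from 243 to 405 TPM (median 354) in OTC sh-Gls2. Cd68 rose by 1.01 ± 0.12 in WT and 1.15 ± 0.13 in OTC (edgeR, adjusted p of 3.22e-09 and 4.45e-10). Of 8 monocyte markers, 6 were higher in WT and 7 in OTC, and Cd14 rose by 1.85 in each strain (edgeR adjusted p of 3.51e-07 and 7.19e-07). The monocyte sum went from a median of 33.2 TPM (26.3 to 65.5) to 62.3 TPM (47.7 to 85.4) in WT and from 46.4 TPM (23.4 to 65.4) to 87.9 TPM (59.1 to 106) in OTC.

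T cell, NK cell and neutrophil markers had low summed levels, and none of those tested was called by edgeR under sh-Gls2. Of 12 T and NK cell markers in the table, 7 were tested and edgeR called 0 in each strain (2 in WT and 1 in OTC at an unadjusted p below 0.05, 0 by DESeq2). They had a summed level from 3.30 to 11.6 TPM (median 4.40) in WT control and from 3.91 to 10.6 TPM (median 7.90) in WT sh-Gls2. In OTC that sum ran from 2.29 to 8.08 TPM (median 4.66) under control and from 4.24 to 9.63 TPM (median 8.13) under sh-Gls2. Of 8 neutrophil markers, 2 were tested and edgeR called 0 in each strain (0 at an unadjusted p below 0.05, 0 by DESeq2), and the median sum was between 3.41 and 7.25 TPM in all 6 groups. The median sums of both lists were higher under sh-Gls2 than under control in each strain.

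Markers of other liver cells are read against the same shares of all tested genes (17.6% higher and 17.2% lower in WT, 20.1% and 22.5% in OTC). Of 9 endothelial markers, 2 were higher in WT and 8 in OTC, and of 10 stellate cell markers, 3 were higher in WT and 6 in OTC. Of 6 bile duct markers, 1 was higher in each strain (Epcam in WT, Spp1 in OTC). Of 5 tested B and plasma cell markers 1 was lower in OTC (Jchain, −0.95 ± 0.32, edgeR adjusted p = 0.0154). In WT edgeR called 0 of these 5 (0 at an unadjusted p below 0.05, 0 by DESeq2). Of 9 hepatocyte markers, 0 were higher, while 2 were lower in WT and 4 in OTC. The WT counts of endothelial, bile duct and hepatocyte markers were near the share over all genes. The part of any of these cell types in the chemokine values was not tested. Under sh-Glud1, edgeR and DESeq2 called 0 genes of these lists, of the receptors, of the other chemokines, of the proteases and of the upstream factors in either strain. At an unadjusted p below 0.05 were, in WT, 3 T and NK cell markers and 1 gene each of the macrophage, hepatocyte and upstream lists, and in OTC 1 upstream gene.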

How the data were processed

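Liver mRNA of 55 male mice was sequenced from strand-specific poly(A) libraries amplified by 12 cycles of PCR, per the labels' protocols. The authors deposited whole-number read counts per gene symbol and TPM values. The submitters' processing notes list CASAVA 1.8.2, FastQC and the build GRCm38. How reads were aligned, counted and annotated is not given in the sources used here. Libraries carry no molecular identifiers, so counting limits cover counting error only.

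Counts were filtered with filterByExpr (minimum count 10, minimum total 15), scaled by TMM and tested with the two-sided quasi-likelihood F test of edgeR 4.0.16 with robust dispersion (R 4.3.3), 1 term for each of 6 groups and 9 comparisons. The SE is the log2 fold change divided by the square root of F, and 95% intervals are from the SE and a normal distribution. Ccl4, under the filter, was compared by exact permutation (SciPy 1.17.1). Correlations used log2 CPM with a prior count of 2. TPM served for levels between genes, marker sums and an alternative in limma 3.58.1. DESeq2 1.42.0 was another alternative, as were other filters and size factors, fits of the compared groups only, fits without the 3 control libraries named in the report, and each library left out. A fit without robust dispersion was added after the data were seen.

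Samples were grouped by the strain and treatment labels. The mouse number of 1 OTC control column matches no sample title, so it was used by its group and is called unnumbered. No batch is named in the labels. Library pairs within groups were checked for duplicates (smallest chi-square per degree of freedom 10.5 over 227 pairs). The members and the gene lists were chosen with earlier results of these data known. Named were the 10 chemokines, their receptors, the called genes of each list by adjusted p (at most 4), the 2 genes most like each chemokine, and Otc, Gls2 and Glud1. Values are printed for part of these list genes, with the value of the other strain beside them, a part picked after the values were seen. The list genes Trac and Tf had no row in the table. The scripts were tested on simulated counts. Some listed genes are not reported here.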

Additional observations from a re-analysis of the deposited data

Results flagged for a closer look

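Of 60 sets of libraries (10 chemokines in 6 groups), 8 held a library far from the rest of its group, always the highest. Chance would flag about 1 in 20 such sets if the values were normally distributed. That was not checked, and the sets share libraries. Of the 8, 4 were in 1 animal, WT control mouse 07.

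WT control mouse 07 was the highest of its group at 2.38 CPM for Ccl5 (next 1.26 CPM), 6.64 CPM for Ccl6 (next 3.60 CPM), 30.1 CPM for Cxcl9 (next 16.9 CPM) and 4.32 CPM for Cxcl10 (next 2.56 CPM). It was also the highest for Ccl2, Ccl4 and Cxcl16, and not for Ccl9, Cxcl1 and Cxcl12. Its monocyte marker sum was 65.5 TPM against 26.3 to 42.1 TPM in the other 9 WT controls, its T and NK cell sum 11.6 TPM against 3.30 to 6.97 TPM, and its bile duct sum 74.7 TPM against 20.4 to 36.7 TPM.

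OTC sh-Glud1 mouse 23 was at 4.90 CPM for Ccl5, with the next library of its group at 0.981 CPM. Its T and NK cell marker sum was 14.6 TPM against 2.31 to 6.76 TPM in the other 7. Its levels of Cd8a (1.94 CPM against 0.219 to 1.05), Gzma (1.65 CPM against 0.0438 to 0.635) and Nkg7 (1.08 CPM against 0.115 to 0.555) were above those of the group, while its Cd3e (0.740 CPM) was within the range of the others (0.0577 to 0.790 CPM).

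WT sh-Glud1 mouse 70 was at 10.98 CPM for Cxcl1 (next 6.96 CPM), and was the highest of its group for Cxcl9, Cxcl10 and Ccl9 as well. OTC sh-Gls2 mouse 21 was at 12.5 CPM for Cxcl10 (next 8.86 CPM), and was the highest of its group for Ccl2, Ccl4 and Ccl5 and the lowest for Ccl9. WT sh-Glud1 mouse 32 was at 391 CPM for Cxcl12 (next 314 CPM).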

How the results depend on the processing

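No paired analysis was possible because the mouse numbers are unique to each mouse and pair no mice across groups. The number of chemokines called was taken for each comparison under each alternative. Where single libraries were left out, only the lowest and the highest number counted. It was within 1.5 times its main value in 104 of 107 such cases. These include sh-Glud1 against control and the strain differences, in which 0 were called throughout. The exceptions were fits without control libraries: 2 were called between OTC and WT control without mice 13, 03 and 67, and 5 in OTC sh-Gls2 without mice 03 and 67 or without all 3. Leaving out single libraries gave 3 to 5 called between the strains, 6 to 9 in WT sh-Gls2 and 7 or 8 in OTC sh-Gls2.

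Among all genes, the strain difference of the sh-Gls2 effect was called for 44 genes, and for 26 with no filter, 91 by DESeq2, 21 and 23 by limma on log2(TPM + 1) and log2(TPM + 0.1), 19 in the compared groups only, 10 without mice 03 and 67, 12 without all 3 libraries, and 14 to 64 without single libraries. Under sh-Glud1 in OTC, 1 gene was called in the compared groups only in place of 2.

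Values that changed sign were of genes not called. On TPM (pseudocounts 1 and 0.1), Cxcl1 in WT sh-Glud1 was at 0.00042 and 0.014, Ccl5 in OTC sh-Glud1 at −0.077 and −0.12, and Cxcl16 in the sh-Gls2 strain difference at 0.065 and 0.091. Without mice 03 and 67, and without all 3 libraries, OTC sh-Glud1 gave −0.025 and −0.024 for Ccl9, −0.080 and −0.079 for Cxcl1, −0.060 and −0.058 for Cxcl10, −0.20 and −0.20 for Cxcl16 and −0.30 and −0.29 for Cxcl9. In the same fits the sh-Gls2 strain difference was −0.22 and −0.17 for Cxcl10 and −0.14 and −0.17 for Cxcl9, and the sh-Glud1 strain difference −0.066 and −0.053 for Ccl9, with Cxcl1 at −0.0050 without mice 03 and 67. The cause was not tested. Depth limits Ccl2 and Ccl4 most, at medians of 11 and 3 counts.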

Other observations

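Single chemokines spread unequally between mice of 1 group. In WT control the coefficient of variation was 12.2% for Cxcl12, 19.6% for Cxcl16 and 23.7% for Ccl9, against 52.5% for Cxcl9 and 53.7% for Cxcl10. In OTC sh-Gls2 it was 9.94% for Cxcl16 and 22.3% for Cxcl10, where OTC control had 37.4% and 45.7%. In OTC sh-Glud1, Ccl5 varied by 116%, which includes mouse 23. These are values over mice with counting error in them, and the differences between groups were not tested.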
